A study of Apis mellifera with 5 samples.

Results

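The comparison described here set the hypopharyngeal glands (HGs) of worker honey bees on day 6 after emergence against the HGs of their sisters on day 3. Its members were all unigenes, the assembled transcript sequences of the DFCI Honey Bee Gene Index, with a read in either library, which came to 19349 of the 20522 unigenes read at any age. Of these, 17785 were read on day 6 and 18378 on day 3. The study sequenced mRNA from HGs of Apis mellifera carnica Pollmann at 5 ages, days 3, 6, 9, 12 and 16, to follow the gland from its growth through the feeding of brood to its decline. The workers at each age were full sisters from one colony at Yangzhou, from a queen inseminated with the sperm of 1 drone, with no treatment other than age. RNA was pooled from 30 bees per age and gave 1 library, so no value below has a replicate library to check it. A test on the reads compares these libraries, not the ages. The study also measured some of these unigenes by qRT-PCR at the same ages and reports several inconsistencies with its reads. Those measurements were not compared with the ratios below. The series text speaks of pooled heads, while the study's methods describe dissected HGs.

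The HGs are paired glands in the head of the worker. In young nurse bees their acini, small clusters of secretory cells, make the proteins of royal jelly (RJ), the food of larvae and queens, and in older foragers the glands shrink and turn to enzymes that convert nectar into honey. The major royal jelly proteins (MRJPs), a family that arose from the yellow proteins of insects, make up most of the protein of RJ. Building the secretory apparatus of such a gland needs ribosomes, the complexes of RNA and protein that translate mRNA, and an endoplasmic reticulum that folds and exports the product.

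The deposited values are unique reads, which match 1 unigene alone, and RPKM, the unique reads scaled to the length of the unigene in kilobases and to the total of unique reads in the library. The day 6 library held 1518649 unique reads and the day 3 library 1697792, within a range of 1207515 to 1815654 over the 5 libraries. At this depth 1 read per kilobase was worth 0.658 RPKM on day 6 and 0.589 RPKM on day 3. A unigene was called when Audic and Claverie's test on the unique reads (two-sided) gave a false discovery rate (FDR) of at most 0.001 and the log2 ratio of RPKM, day 6 over day 3, was at least 1 in size. Intervals in brackets are 95% exact (Clopper-Pearson) intervals on the scale of the log2 ratio or of a share, and they cover counting error only and treat copies made by PCR as if they were separate molecules. Names came from the deposited annotation or from the study. That annotation covers exactly the 7628 unigenes with a day 3 RPKM above 0 and under 10, so its members had little room to be called lower, and most abundant unigenes carry no name.

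Royal jelly transcripts and muscle transcripts were higher on day 6, while an ionotropic glutamate receptor, both sodium/potassium ATPase subunits and a small set of unigenes that all but vanished at later ages were lower. The calls of the royal jelly unigenes and of the ATPase subunits lay close to the limit and depended on how the libraries were scaled. In all, 111 of 19349 unigenes (0.574%) rose and 56 (0.289%) fell on day 6 against day 3. The 111 higher unigenes took 11.6% of the unique reads on day 6 and 5.15% on day 3, and the mrjp2 unigene TC24109 alone made up 46.3% of these day 6 reads. The 56 lower unigenes took 0.217% of the reads on day 6 and 0.538% on day 3. Of the called unigenes, 20 were at least 4-fold higher and 3 at least 4-fold lower. Another 635 unigenes passed the FDR with a change under 2-fold, 127 of them above 0 and 508 below.

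The bulk of the transcriptome differed little. All the calls lay among the 13434 unigenes with at least 10 reads over both libraries, of which 0.826% rose and 0.417% fell. Their median log2 ratio, taken on RPKM + 0.1, was -0.20, and the middle of the distribution ran from -0.54 to 0.16 between the quartiles. Of the 5377 unigenes with at least 100 reads, 96.9% lay within 2-fold. The median varied with length, at -0.33 in the 3372 shortest unigenes (114 to 524 bases) and -0.13 in the 3359 longest (1667 to 29246 bases). It was 0.07 over the 2784 annotated unigenes with at least 10 reads and -0.25 over the 10650 outside the annotation, the side of the split that holds all 56 lower calls. Another scaling of the libraries shifted every ratio alike, by 0.17 and 0.18 upward with TMM and DESeq2's size factors, which rest on the bulk of unigenes, and by 0.16 and 0.28 downward with the study's totals of clean and mapped reads in place of unique reads. The counts of unigenes higher and lower then became 159 and 21, 165 and 20, 83 and 197, and 70 and 480, so the share of higher calls, 66.5% as reported, was 88.3%, 89.2%, 29.6% and 12.7% in that order. When replicates were taken to vary with a CV (SD over mean) of 0.2, edgeR's exact test called none of them. By that test 571 of the 19349 unigenes had an unadjusted p under 0.05, at a CV that was assumed and not estimated. Of the 19349, 5915 had under 10 reads, where such a p is hard to reach, so the count is not compared with chance.

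**Figure D1:**
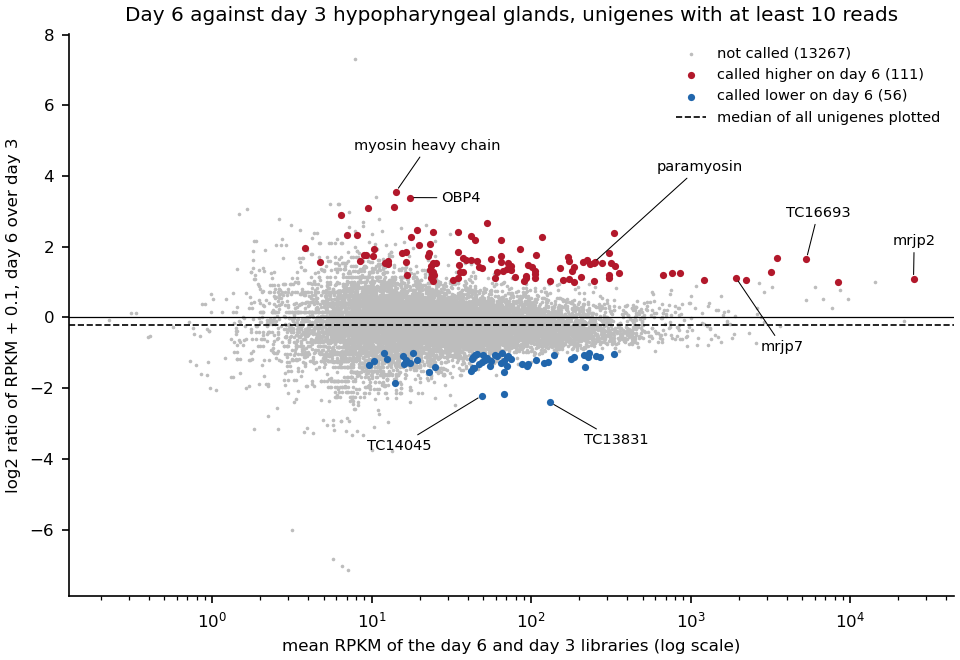
The log2 ratio of RPKM + 0.1, day 6 over day 3 (vertical axis), against the mean RPKM of both libraries (log scale) for the 13434 unigenes with at least 10 reads, 1 point each. The 111 red points were called higher and the 56 blue points lower, the dashed line is the median of -0.20, and the few points near the top and bottom edges had no read in one of the libraries, so that their place is set by the added 0.1.

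The royal jelly proteins rose as a share of the library. The 33 unigenes named for them took 5.85% (5.82 to 5.89) of the unique reads on day 6, against 2.74% (2.71 to 2.76) on day 3. Nearly all of the share of these 33 was mrjp2, whose protein is one of the main components of RJ. Without TC24109 the share was 0.461% on day 6 and 0.210% on day 3. Of the 33, 30 lie within the annotation, so each of these had a day 3 RPKM under 10. A more abundant unigene of the family would carry no name here unless the study named it, so the share covers named unigenes only. The share of all 33 stood at 13.8% in the day 9 library, 14.4% at day 12 and 6.60% at day 16. Reads that match more than 1 unigene were left out of the unique reads, so near-identical members of the family may be undercounted. By the study's totals such reads were a larger share of the day 6 library than of the day 3 library. The undercount may therefore differ between the libraries, and its part in the ratios was not tested.

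TC24109 had 81904 reads on day 6 and 42891 on day 3, or 34027 and 15939 RPKM, a log2 ratio of 1.09 (1.08 to 1.11). It was the unigene with the highest RPKM on day 6. The shorter mrjp2 unigene BP540149 had 836 reads on day 6 and 391 on day 3, or 1210 and 506 RPKM, a log2 ratio of 1.26 (1.08 to 1.43). For mrjp7, TC13222 gave 5978 reads on day 6 and 3067 on day 3, or 2635 and 1209 RPKM, a log2 ratio of 1.12 (1.06 to 1.19). All 3 were thus a little over 2-fold higher and near the limit for a call. They were no longer called when the libraries were scaled by mapped reads, and only BP540149 was called when they were scaled by clean reads. The qRT-PCR primers for TC13222 are shown as the only stretches of mrjp7 sequence at hand. They do not locate the reads, which were counted over the whole unigene. Capitals mark the 5 bases of the 3′ end, which the polymerase extends.

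TC13222 mrjp7 forward: agattgtgggttttggaCTCAG

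TC13222 mrjp7 reverse: cttccctgttctgtggtGGTAT

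The other named members were read thinly, which is a condition of the name for those within the annotation, all under 10 RPKM on day 3. Of the 33 unigenes, 14 had at least 10 reads, 3 were called higher and none lower, against 0.921% higher and 0.381% lower among all 4993 named unigenes, or 2.01% and 0.829% among the 2292 named unigenes with at least 10 reads. All 3 called unigenes were picked by the study from these libraries, so their calls are not independent evidence. Of the 30 members within the annotation, none was called. The median log2 ratio of the 14 was 1.19, beside 0.08 over all named unigenes with at least 10 reads. Of the 14, 11 lie within the annotation, where the cap on day 3 RPKM and the minimum of reads together favour ratios above 0. The median of these 11 was 1.27, beside 0.07 over all annotated unigenes with at least 10 reads, and was not tested. TC12751, named for MRJP4, had 28 reads on day 6 and 11 on day 3 and was not called (log2 ratio 1.51, FDR 0.039 by Audic and Claverie's test). The MRJP1 unigene TC17816 had 7 reads on day 6 and 6 on day 3, and the MRJP3 unigene TC22893 had 9 and 2. MRJP8, a member of the family that is not known as a component of RJ, had 10 reads on day 6 and 15 on day 3 at TC12413. MRJP9, which has been described in bee venom, had 11 reads on day 6 and 3 on day 3 at TC12355. The remaining 19 unigenes had at most 9 reads each, 52 in all on day 6 and 41 on day 3.

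None of the 6 yellow family unigenes, relatives of the MRJPs, was called. The yellow-e unigene TC14541 had 29 reads on day 6 and 23 on day 3, the yellow-e3 unigene TC12417 had 34 and 19, and the yellow-e unigene DB739842 had 6 and 0. Glucose oxidase, which makes hydrogen peroxide as a preservative of bee food, was not called at BP539841, with 61 reads on day 6 and 81 on day 3. Other named carbohydrate enzymes linked to honey making were close to the floor, such as the glucose dehydrogenase unigenes TC21807 (8 reads on day 6 and 10 on day 3) and NP9552746 (5 and 3). Of the 39 carbohydrate enzyme unigenes, 36 lie within the annotation, so their low day 3 level was a condition of the name. Glucocerebrosidase, at TC19526, had 51 reads on day 6 and 34 on day 3 (log2 ratio 0.75, 0.09 to 1.42) and did not pass the test.

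Muscle transcripts formed the largest group of called unigenes with names. Contraction in striated muscle rests on thin filaments of actin, tropomyosin and troponin that slide along thick filaments of myosin, with giant proteins such as titin holding the lattice in register. Of 63 unigenes named for these proteins, 22 rose and none fell on day 6, against 0.574% and 0.289% of all unigenes and 0.921% and 0.381% of named ones. Several of the 22 share a name, among them 4 for titin, and may be parts of 1 gene. The count is thus one of unigenes, not of separate genes. The list took 0.539% (0.527 to 0.551) of the unique reads on day 6, with 8184 reads, and 0.193% (0.186 to 0.199) on day 3, with 3271. Among the 48 members with at least 10 reads, 44 had a ratio above 0 and 31 an interval wholly above 0, and the median log2 ratio was 1.48. Of the 48, 34 lie within the annotation, where the cap on day 3 RPKM and the minimum of reads together favour ratios above 0. The median of these 34 was 1.36, beside 0.07 over all annotated unigenes with at least 10 reads. The study picked some of these genes from these libraries, so its choice is not independent evidence: it named 15 members, of which 14 rose, while the annotation alone named 48, of which 8 rose, against 0.328% of the annotated unigenes.

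Paramyosin, the core protein of invertebrate thick filaments, had 1740 reads on day 6 and 665 on day 3 at TC14580, or 367 and 126 RPKM, a log2 ratio of 1.55 (1.42 to 1.68). Myosin regulatory light chain 2 at TC15188, which tunes the myosin head, had 844 reads on day 6 and 322 on day 3, a log2 ratio of 1.55 (1.36 to 1.74). The motor itself was represented by several unigenes. Myosin heavy chain 1 at TC22963 had 135 reads on day 6 and 46 on day 3 (1.71, 1.22 to 2.23), and TC21638 had 30 and 6 (2.48, 1.19 to 4.04). At CK630095 there were 22 reads on day 6 and 2 on day 3, and the log2 ratio of 3.62 (1.60 to 6.75) was the highest of any called unigene. Myosin light chain kinase names covered 3 further called unigenes, with log2 ratios of 1.52 at NP9550065, 1.58 at TC24155 and 1.84 at TC13924. These were also the only 3 called members of the list of 194 protein kinases, or 1.55% of it, close to the 0.921% of named unigenes.

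Troponin T, which anchors the troponin complex to tropomyosin, had 940 reads on day 6 and 380 on day 3 at NP1608872, or 495 and 179 RPKM, a log2 ratio of 1.47 (1.29 to 1.64). A second troponin T unigene, TC18912, had 132 reads on day 6 and 55 on day 3 (1.42, 0.96 to 1.91). Another, DB731917, had 28 reads on day 6 and 6 on day 3 and just missed the call (2.38, 1.08 to 3.95, FDR 0.0012 by Audic and Claverie's test). Troponin I, the inhibitory subunit, had 97 reads on day 6 and 35 on day 3 at TC24102 (1.63, 1.06 to 2.23). Tropomyosin-1 at TC13807, which covers the myosin sites of actin, had 747 reads on day 6 and 279 on day 3 (1.58, 1.38 to 1.79). The calcium sensor troponin C was read little, with 15 reads on day 6 and 14 on day 3 at TC19987.

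Calls among the giant and lattice proteins were mixed with members that did not pass. Stretchin-Mlck at NP9550064, a titin-like protein of insect muscle, had 1295 reads on day 6 and 546 on day 3 (1.41, 1.26 to 1.55). The M-line protein unc-89, known from the nematode as the organiser of the middle of the thick filament, had 405 reads on day 6 and 109 on day 3 at NP9550883 (2.05, 1.75 to 2.37) and 70 and 15 at TC20547 (2.38, 1.56 to 3.29). Of the 11 titin unigenes with at least 10 reads, 4 were called, DB752873, TC18728, TC22830 and DB737629, with log2 ratios of 2.42, 2.02, 1.53 and 1.30, and 7 were not. The study's primer list names DB752873 as zormin, a titin relative of the Z-disc, and TC22830 as an immunoglobulin-like and fibronectin type III domain protein. Without TC22830 the list had 21 calls. Muscle LIM protein at 84B (TC20289), Muscle-specific protein 20 (TC12842) and Zeelin1 (TC14294) had log2 ratios of 1.12, 1.49 and 1.38. Among members with at least 10 reads, 4 had a ratio below 0 and none of these was called: the Myosin-2 essential light chain unigenes TC16914 (3 reads on day 6 and 14 on day 3) and TC14860 (6 and 15), the titin unigene NP9548719 (31 and 49) and a troponin I unigene, TC16162 (4 and 8). The 15 members under 10 reads had 33 reads on day 6 and 37 on day 3.

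Outside this list, further unigenes named for proteins found in muscle were called. The actin unigenes TC12464 and TC17341, which the study's primer list assigns to the same actin gene, LOC551369, had 715 and 34 reads on day 6 and 323 and 7 reads on day 3. Their log2 ratios of 1.31 (1.12 to 1.50) and 2.44 (1.25 to 3.86) had intervals that overlapped. Both moved the same way, though unigenes assigned to 1 gene are not separate evidence. Their qRT-PCR primers differ and are given to tell the unigenes apart, with the extended 3′ end in capitals as before. The ratios come from reads over each whole unigene, not from the amplified stretches.

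TC12464 actin forward: acaactcatccccacGAGAA

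TC12464 actin reverse: aactgtccttttgacccATACC

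TC17341 actin forward: tagatacgacaacccgaCACAC

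TC17341 actin reverse: tccaaatgaagcgatagATGAA

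Regucalcin, a calcium-binding protein, had 1532 reads on day 6 and 749 on day 3 at TC14544, or 938 and 410 RPKM (1.19, 1.07 to 1.32). It was the one call among 9 calcium handling unigenes, and the 3 others with at least 10 reads lay below 0, with a list median of -0.05. Sarcalumenin, a calcium-binding protein of the muscle reticulum, had 72 reads on day 6 and 19 on day 3 at TC22616 (2.08, 1.34 to 2.90). An FHL family LIM domain protein, TC17210, had 32 reads on day 6 and 4 on day 3 (3.16, 1.67 to 5.12), and the PDZ and LIM domain protein 2 unigene TC15753 had 86 and 35 (1.46, 0.88 to 2.07).

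In a library of pooled glands, more cells of a type and more RNA per cell cannot be told apart. The defining muscle markers (37 unigenes for myosin heavy chain, titin, troponin, tropomyosin, paramyosin and unc-89) summed to 2383 RPKM on day 6 and 809 RPKM on day 3, 14 of them were called higher and 3 were at 0 on day 6. Without TC22830 the sums were 2276 and 772 RPKM. All 37 are also members of the list above, and the part of muscle tissue in the result was not tested. Markers of the secretory cells summed to 38153 RPKM on day 6 and 17894 on day 3, but 33 of these 37 are the royal jelly list above, and without TC24109 the sums were 4127 and 1955 RPKM. The 18 neuron markers summed to 51.6 RPKM on day 6 and 62.0 on day 3, the 7 fat body markers to 15.7 and 18.4, the 2 haemocyte markers to 6.43 and 8.37, the 21 cuticle markers to 75.0 and 86.6, and the 3 photoreceptor markers to 6.07 and 9.77, with no member of these lists called. Antennal markers summed to 81.7 RPKM on day 6 and 51.8 on day 3, with 1 of 24 called. Without that one, the odorant binding protein 4 unigene TC13645, the sums were 49.99 and 48.8 RPKM. All neuron, fat body, haemocyte, cuticle, photoreceptor and antennal markers lie within the annotation, so each had a day 3 RPKM above 0 and under 10. More abundant markers would be missed and these had little room to be called lower, so the sums do not measure how much of such tissue was present. RNA integrity differed between the libraries in the study's own table, and its part was not tested.

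**Figure D2:**
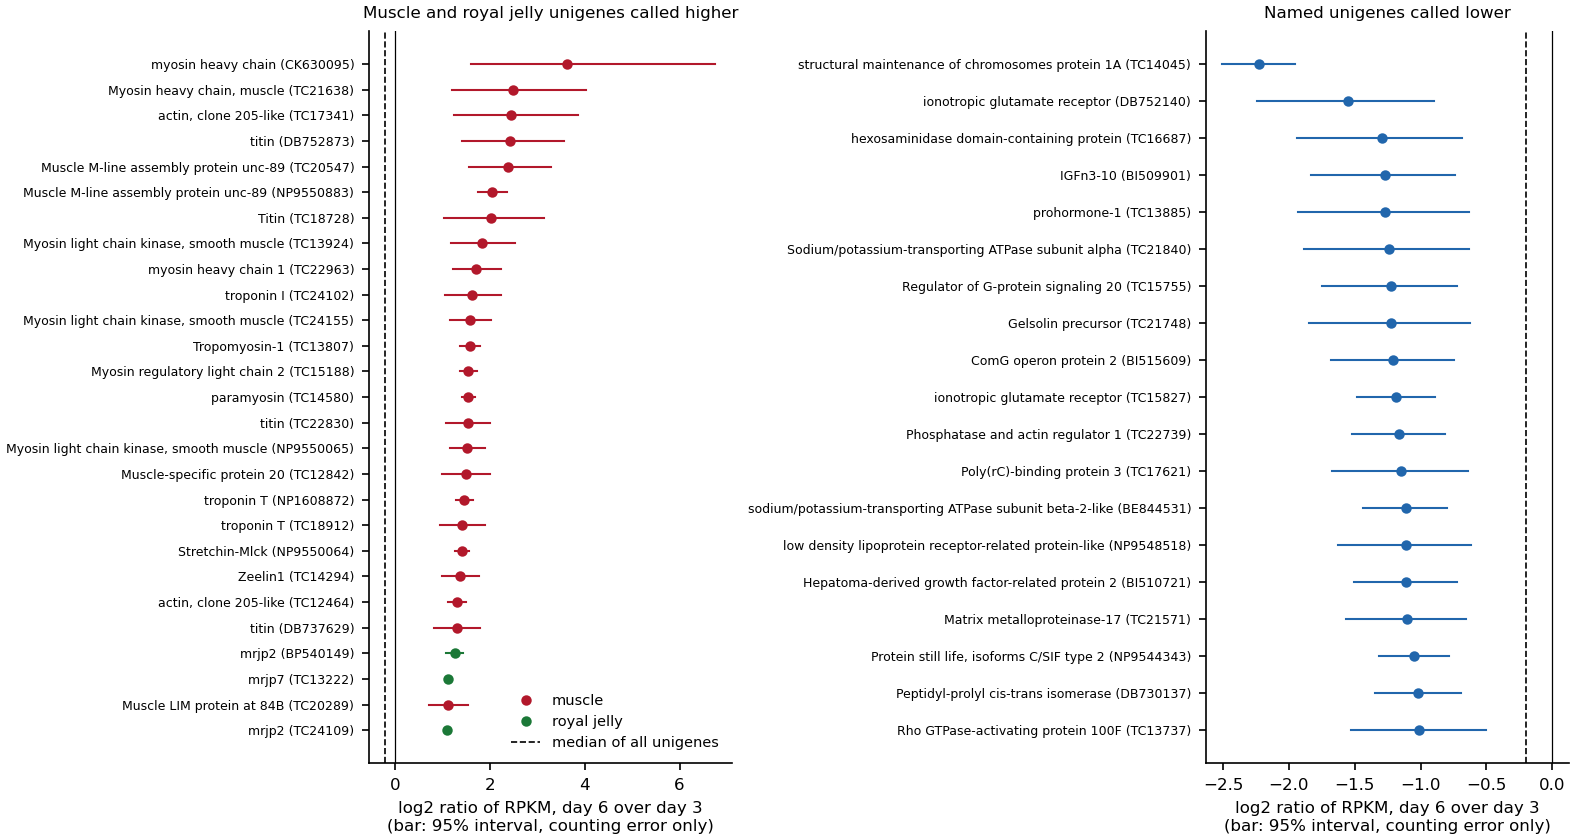
The log2 ratio of RPKM, day 6 over day 3, of the called muscle unigenes (red) and royal jelly unigenes (green) on the left and of the 19 called lower unigenes with a name (blue) on the right, each with its 95% interval for counting error. Every interval on the left lies above 0 and every one on the right below it, and the dashed line is the median of all unigenes, -0.20.

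Lists of enzymes and carriers held 1 or 2 calls each, beside 0.921% of all named unigenes and 2.01% of those with at least 10 reads, and nothing is read from such counts about a list as a whole. Cytochrome P450 enzymes oxidise lipids, hormones and plant compounds, and 2 of 27 were called: 6AS5 at TC12392, with 65 reads on day 6 and 20 on day 3 (1.86, 1.12 to 2.66), and 4C1 at TC15365, with 49 and 14 (1.97, 1.09 to 2.94). The median log2 ratio of the 13 with at least 10 reads was 0.66. Of 37 serine proteases, 2 were called, the plasma kallikrein match TC14919 with 28 reads on day 6 and 4 on day 3 (2.97, 1.45 to 4.94) and the stubble match NP9547526 with 24 and 3 (3.16, 1.44 to 5.54). Odorant binding protein 4, a small carrier of hydrophobic ligands, had 29 reads on day 6 and 3 on day 3 at TC13645 (3.43, 1.74 to 5.79), the one called member among 32. Nose resistant to fluoxetine protein 6, named for a nematode membrane protein, had 97 reads on day 6 and 22 on day 3 at TC14988 (2.30, 1.62 to 3.04).

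Fatty acyl-CoA reductase 1, which makes fatty alcohols, had 55 reads on day 6 and 21 on day 3 at TC14207 (1.55, 0.80 to 2.35), while a second unigene of that name, TC20045, had 20 and 26 and was not called. These were among 23 unigenes of fatty acid synthesis, with no other call. A diacylglycerol lipase match, TC14607, was the one call among 28 lipases, with 56 reads on day 6 and 18 on day 3 (1.80, 1.01 to 2.65). Among 176 membrane transporters 2 (1.14%) were called, close to the 0.921% of named unigenes, namely the ABC transporter TC15513 with 123 reads on day 6 and 58 on day 3 (1.25, 0.78 to 1.72) and the monocarboxylate transporter TC17025 with 55 and 20 (1.62, 0.86 to 2.44), and the median of the 82 with at least 10 reads was 0.01. RING finger proteins, a class that includes ubiquitin ligases, were called at NP9549071 (118 reads on day 6 and 43 on day 3) and TC19725 (115 and 42).

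The machinery of translation differed by far less than 2-fold. None of 90 cytosolic ribosomal protein unigenes was called, and the median log2 ratio of the 70 with at least 10 reads was 0.22, a value that turned to -0.06 when the libraries were scaled by mapped reads. Under the clean reads it was 0.06. Of these 70, 59 had a ratio above 0 and 35 an interval above 0, against 1 interval below. Their share of the reads was 2.61% on day 6 and 2.22% on day 3. Well-read examples were ribosomal protein L7Ae at TC14117, with 2421 reads on day 6 and 2051 on day 3 (0.40, 0.31 to 0.49), L23Ae at TC12633, with 1947 and 1865 (0.22, 0.13 to 0.32), and L4e at TC14457, with 1671 and 1614 (0.21, 0.11 to 0.31). Most members were named by a list that the study drew from these libraries, so their direction is not independent evidence, and the 3 members with enough reads named by the annotation alone had a median of -0.20.

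One gene of ribosome assembly was called. BOP1, part of the complex that processes the RNA of the large subunit, had 77 reads on day 6 and 37 on day 3 at TC17720 (1.22, 0.63 to 1.82), and the median of the 10 ribosome biogenesis unigenes with at least 10 reads was 0.45. Translation factors had a median of 0.61 over 13 unigenes, none called, and -0.27 when at least 50 reads were asked for. The aminoacyl tRNA synthetases, which load amino acids onto tRNA, had a median of 0.07 over 17 unigenes. The secretory pathway list stood at -0.02 over 36 unigenes and the list of endoplasmic reticulum protein processing and chaperones at -0.16 over 8, and no member of either was called. The medians of the last 3 lists changed sign under at least 1 of the scalings. Conserved oligomeric Golgi complex subunit 7 at TC17802, a tether of Golgi vesicles, had 50 reads on day 6 and 25 on day 3 (1.16, 0.44 to 1.92) and did not pass the FDR. Oxidative phosphorylation had a median of 0.35 over 13 unigenes and proteasome and ubiquitin 0.33 over 27, again without a call. Apart from ribosome biogenesis, all members of the lists in this paragraph lie within the annotation. They leave out any unigene at 10 RPKM or more on day 3 and had little room to be called lower.

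The TOR kinase links nutrients to growth, and 10 unigenes of its pathway are listed by the study, chosen on these libraries. None was called, and 8 of the 10 had a ratio below 0, with a median of -0.34. All of them lie outside the annotation, where the median of all unigenes was -0.25. AKT, the kinase upstream of TOR, had 413 reads on day 6 and 561 on day 3 at TC15907 (-0.28, -0.47 to -0.10), and TSC2, a brake on TOR, had 180 and 225 at NP9546367 (-0.16, -0.45 to 0.13). The insulin-like growth factor-binding protein unigenes went both ways without a call, TC21952 with 366 reads on day 6 and 322 on day 3, TC14287 with 149 and 125, and NP9547607 with 7 and 18.

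**Figure D3:**
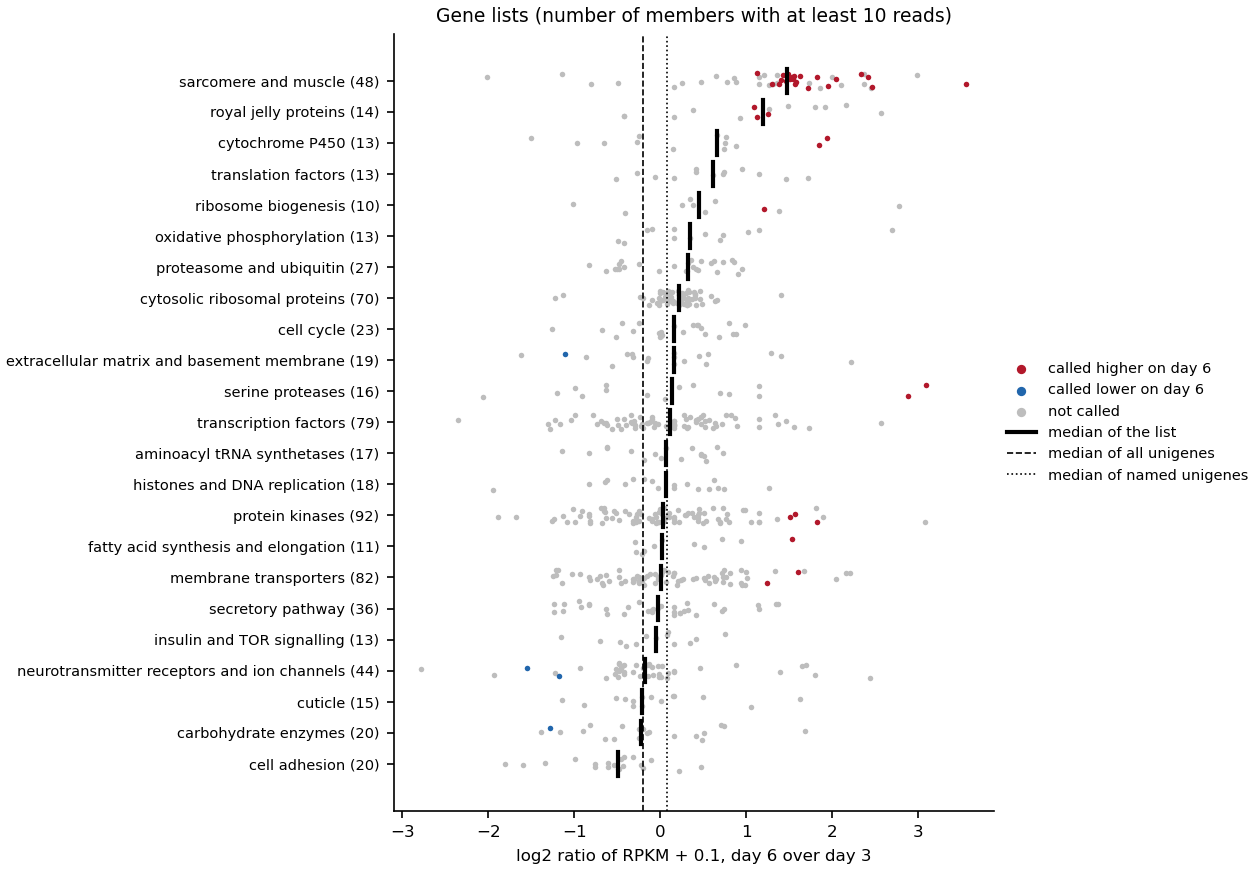
The log2 ratio of RPKM + 0.1, day 6 over day 3, of each member with at least 10 reads in the lists with 10 or more such members, 1 point each, with called members in red or blue. The black bars are list medians, from 1.48 for the muscle list to -0.49 for cell adhesion, beside the median of all unigenes at -0.20 (dashed) and of named unigenes at 0.08 (dotted).

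The 19 named unigenes that fell had varied roles. Ionotropic glutamate receptors are ligand-gated cation channels, and the unigenes TC15827 and DB752140, which carry the same target, LOC411220, in the primer list, were both lower. TC15827 had 133 reads on day 6 and 338 on day 3, or 26.1 and 59.3 RPKM (-1.18, -1.49 to -0.89). DB752140 had 26 reads on day 6 and 85 on day 3, or 34.5 and 101 RPKM (-1.55, -2.24 to -0.90). The intervals overlapped, and since both unigenes are assigned to 1 target they may not be separate evidence. Their qRT-PCR primers differ.

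TC15827 glutamate receptor forward: caaaaagcccatcaaaCAGAA

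TC15827 glutamate receptor reverse: tggacacggtaaagagaACGAT

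DB752140 glutamate receptor forward: cgcataccgtgttttcTTGTT

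DB752140 glutamate receptor reverse: cgtttctccttctccCTTCG

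These were the only called members among 88 neurotransmitter receptor and ion channel unigenes. Of the 88, 86 lie within the annotation and had little room to be called lower. Nothing is read from the count about the list as a whole. The median of the 44 with at least 10 reads was -0.18, close to 0 with TMM or DESeq2's size factors. Prohormone-1, a precursor of neuropeptides, had 29 reads on day 6 and 78 on day 3 at TC13885 (-1.27, -1.93 to -0.63). It was the one call among 6 such unigenes, 5 of which lie within the annotation. The sodium/potassium ATPase keeps the sodium and potassium gradients of every animal cell, and its beta subunit BE844531 had 117 reads on day 6 and 283 on day 3 (-1.11, -1.44 to -0.80), while its alpha subunit TC21840 had 31 and 82 (-1.24, -1.89 to -0.63). Protein still life at NP9544343, an exchange factor for Rac known from fly synapses, had 171 reads on day 6 and 395 on day 3 (-1.05, -1.31 to -0.78). RhoGAP100F at TC13737, also described at fly synapses, had 48 and 108 (-1.01, -1.53 to -0.51), and Regulator of G-protein signaling 20 at TC15755 had 46 and 120 (-1.22, -1.75 to -0.72).

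Gelsolin, which severs actin filaments, had 33 reads on day 6 and 86 on day 3 at TC21748 (-1.22, -1.85 to -0.63), and Phosphatase and actin regulator 1 had 95 and 238 at TC22739 (-1.16, -1.52 to -0.82). Matrix metalloproteinase-17, which cleaves extracellular proteins, had 59 reads on day 6 and 142 on day 3 at TC21571 (-1.11, -1.57 to -0.66). It was the one call among 32 extracellular matrix unigenes, 31 of which lie within the annotation. The median of that list was 0.16 over the 19 with at least 10 reads. A hexosaminidase unigene, TC16687, had 31 reads on day 6 and 85 on day 3 (-1.29, -1.94 to -0.69). It was the one call among 39 carbohydrate enzymes, 36 of which lie within the annotation. Members within the annotation had little room to be called lower, so nothing is read from such counts about a list as a whole. All 31 members of the cell adhesion list also lie within the annotation, and none was called. Its median was the lowest of the larger lists, -0.49 over 20 unigenes, of which 18 lay below 0. The fat-like cadherin NP9550335 was its most read member, with 72 reads on day 6 and 137 on day 3 (-0.77, -1.20 to -0.35), and Protein dachsous at NP9550987 had 70 and 92.

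All 19 names among the lower unigenes come from the R group, 24 unigenes that the study picked from these libraries as DEGs (differentially expressed genes) against day 3, of which 23 fell here and 1, the ABC transporter TC15513, rose. The M group of 29, picked likewise, had 28 that rose and 1, DB731917, that was not called. Their counts are thus no independent evidence of a direction. Many of the lower calls lay close to the limit: scaled by TMM or by DESeq2's size factors, TC13885, BE844531, TC21840, NP9544343, TC13737, TC21748, TC22739, TC21571 and TC16687 were no longer called.

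The 3 unigenes that were at least 4-fold lower shared a course. TC13831, without a name, had 91 reads on day 6 and 540 on day 3, or 41.8 and 222 RPKM (-2.41, -2.74 to -2.09). TC14045 had 130 reads on day 6 and 679 on day 3, or 17.3 and 80.6 RPKM (-2.22, -2.51 to -1.95). TC15309, also without a name, had 20 reads on day 6 and 100 on day 3, or 24.6 and 110 RPKM (-2.16, -2.93 to -1.46). On days 9, 12 and 16, TC14045 stood at 1.34, 0.600 and 0.999 RPKM, TC13831 at 1.16, 3.11 and 2.69 RPKM, and TC15309 at 1.55, 5.56 and 0 RPKM, so day 6 held a middle place in a loss that was nearly complete by day 9. The sources disagree on TC14045, which is a structural maintenance of chromosomes protein in the study's group table and a fibril-forming collagen alpha chain-like gene, LOC410038 in RefSeq, in its primer list. The qRT-PCR primers, whose target gave the collagen-like name, are shown so that the identity can be looked up.

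TC14045 forward: ggtggattaccgacagaAACAT

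TC14045 reverse: ccaggaacagcaacagCATTA

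Most of the abundant unigenes have no name. Of the 14356 unigenes without one, 65 (0.453%) rose and 37 (0.258%) fell. On day 6, TC24109 was followed in RPKM by TC20841, at 20968 on day 6 and 22443 on day 3 (-0.10, -0.12 to -0.07). TC24306 had 18984 RPKM on day 6 and 9509 on day 3, from 12224 and 6845 reads, and its log2 ratio fell just short of 1, whereas TC22404, at 11237 and 5598 RPKM, lay just inside the limit at 1.01. Other unnamed unigenes rose strongly on day 6: TC16693 had 8080 RPKM on day 6 and 2563 on day 3 (1.66, 1.59 to 1.72), BI507134 had 5274 and 1646 (1.68, 1.60 to 1.76), and BI516685 had 4506 and 1841 (1.29, 1.17 to 1.41). TC13869, with 4978 reads on day 6 and 1562 on day 3, and TC12472, with 906 and 194, had log2 ratios of 1.83 and 2.38. The largest losses of RPKM were all under 2-fold, for example at TC21510, with 1943 RPKM on day 6 and 3203 on day 3 (-0.72), and TC17229, with 1186 and 1914 (-0.69). The 10 most read unigenes took 18.0% of the reads on day 6 and 11.4% on day 3.

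By the study's classes of expression, 141 unigenes had an RPKM of at least 500 on day 6 and 166 on day 3, with 122 in both, 19 on day 6 alone and 44 on day 3 alone. The moderate class, from 10 to under 500 RPKM, held 10103 unigenes on day 6 and 10584 on day 3. No unigene was called as present at one age alone. Reads on day 6 only were found for 971 unigenes, at most 13 reads at TC19625 (FDR 0.0025 by Audic and Claverie's test), and reads on day 3 only for 1564, at most 12 reads at BI512662. A count of 0 allows up to 3 reads, and against that floor TC19625 was 4.84-fold higher on day 6. The called unigenes were longer than most, with a median of 1263 bases for those higher and 846.5 for those lower, beside 806 for all with at least 10 reads.

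The later libraries show what became of the called unigenes, with the reminder that the day 6 and day 3 values made the call. Of the 111 that were higher, 12 peaked in RPKM on day 6 itself, 24 on day 9, 37 on day 12 and 38 on day 16. All 111 were above their day 3 value on day 9, while 106 were so on day 12 and 99 on day 16. The plasma kallikrein match TC14919 climbed furthest, with 1.45, 11.4, 96.4, 415 and 747 RPKM in order of age. TC14254, without a name, had 13.95, 69.5, 376, 1347 and 2212 RPKM. Day 9 gave the muscle list 0.726% of the reads, day 12 gave it 1.32% and day 16 1.20%, so its day 6 share was the second lowest of the 5.

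Unigenes with their highest value on day 6 included TC16693, with 2563, 8080, 5013, 1969 and 4246 RPKM in order of age. TC12472 had 107, 558, 539, 359 and 224 RPKM. BOP1 at TC17720 had 10.01, 23.3, 12.5, 9.56 and 5.82 RPKM, and beta-dehydrogenase at TC14601, with 50 reads on day 6 and 19 on day 3, had 12.3, 36.2, 13.7, 15.6 and 5.45 RPKM. Among the 56 that were lower on day 6, RPKM was highest on day 3 in 51. In 5 the level turned back at later ages: TC12290 had 34.04, 11.7, 26.8, 121 and 237 RPKM, and NP9548073, TC17284 and TC13996 likewise exceeded their day 3 value on days 12 and 16. TC18035 did so on day 12 alone, with 107 RPKM against 63.9 on day 3 and 31.8 on day 16.

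**Figure D4:**
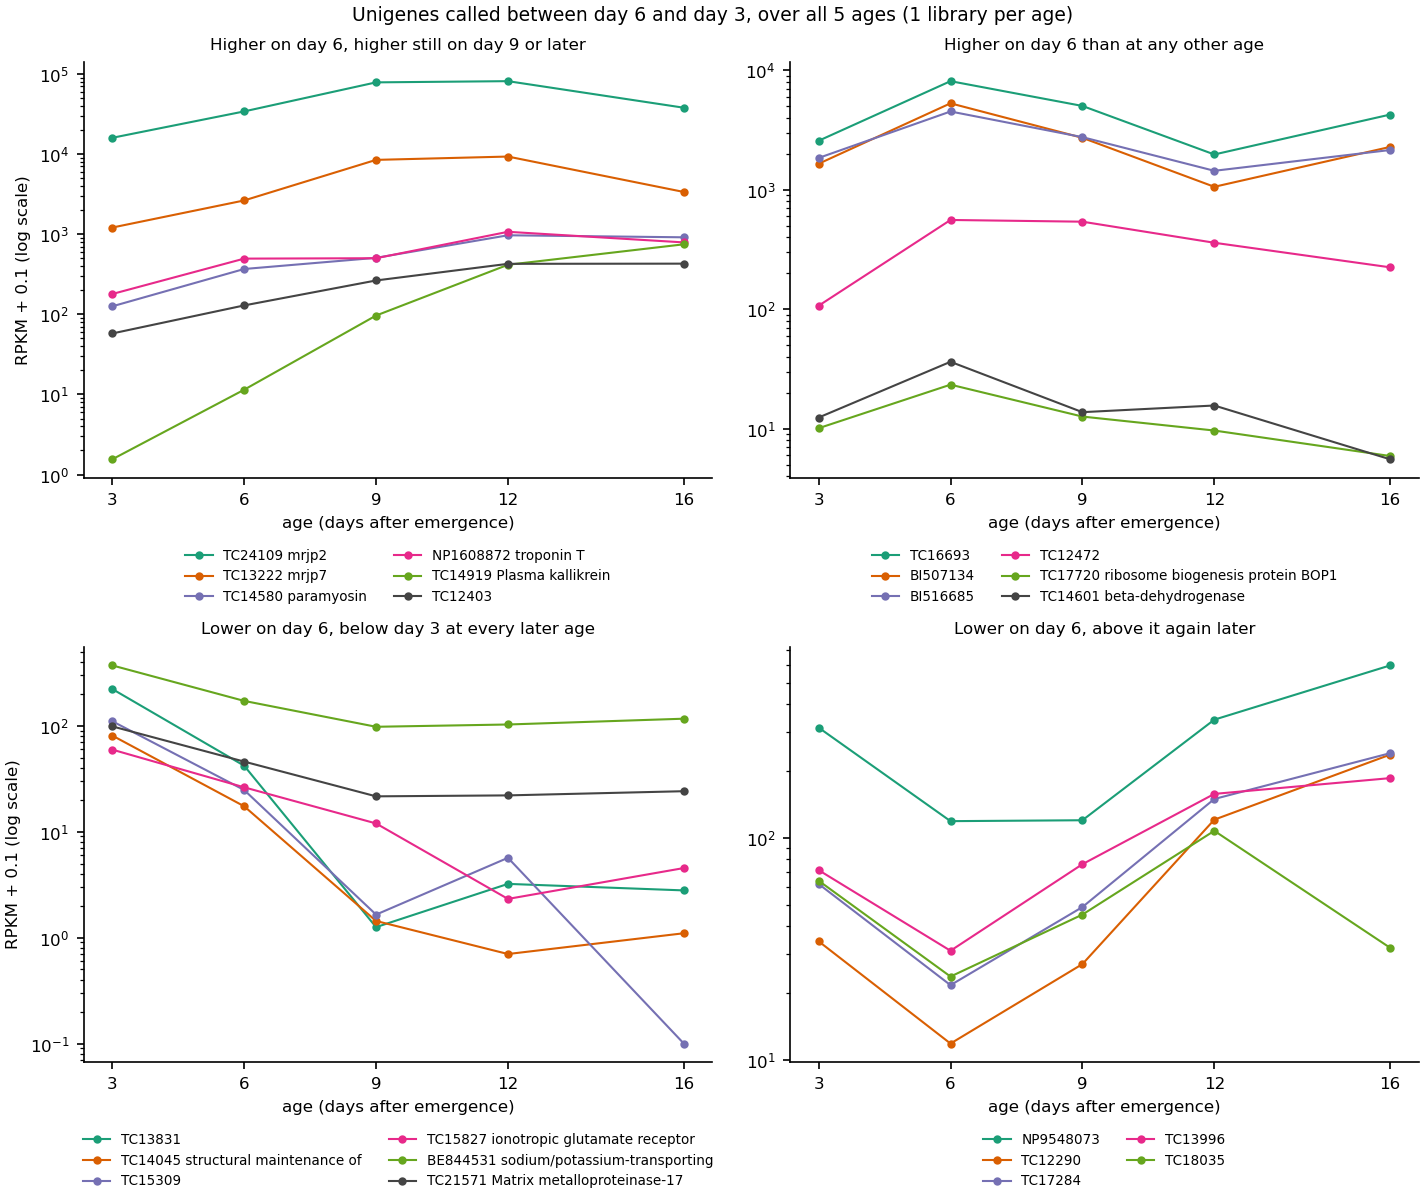
RPKM + 0.1 (log scale) at the 5 ages, in days after emergence, for 23 unigenes called between day 6 and day 3, with 1 library per age and no error bars. The upper panels show unigenes higher on day 6, such as mrjp2, which stood at 34027 RPKM on day 6 and above that on days 9, 12 and 16, and the lower panels show unigenes lower on day 6, of which TC12290 reached 237 RPKM on day 16.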

How the data were processed

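HG RNA pooled from 30 bees gave 1 library per age (oligo(dT) mRNA, Illumina HiSeq). The authors aligned the clean reads by SOAP2 with up to 2 mismatches (version not given in the sources used here), to DFCI Honey Bee Gene Index unigenes. They deposited a count of unique reads per unigene, the RPKM made from that count, the unigene length and the library's unique reads, and the coverage as a fraction of the length, which was not used. Deposited RPKM was recomputed from the counts to within rounding. Groups followed the age labels. Counts were compared by the two-sided test of Audic and Claverie, chosen here, with adjustment by Benjamini and Hochberg over 19349 unigenes, at the study's thresholds. The test was tried on simulated counts with counting error alone. It recovered 19.4% of 2-fold and 53.7% of 4-fold changes, or 44% and 100% of those with at least 100 reads. A unigene without a call may thus still have changed. Lists are described by calls and medians of log2(RPKM + 0.1) ratios over members with at least 10 reads. The members and the 36 functional and 8 marker lists, searched by name and cleared of plain mismatches, were chosen with earlier results of these data known.

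Named unigenes were those the study names, the 15 highest and 15 lowest called ratios of named unigenes that had 50 reads or more, the 10 highest by RPKM in each library, the 10 largest gains and losses, the 3 most read members of each list and every called member. TC14254, TC12290, NP9548073, TC17284, TC13996, TC18035, TC13831, TC15309 and TC12472 and the single muscle exceptions were added after their values were seen. Primers came from the study's list, 5 of 18 targets matching RefSeq (Amel_HAv3.1) symbols. Coordinates are not given. Alternatives were TMM (edgeR 4.0.16), DESeq2 1.42.0 size factors, clean and mapped reads as totals, an exact binomial test, edgeR's exact test with an assumed CV, other read minimums and an FDR of 0.05. Marker sums and the muscle count without single unigenes were added after seeing the data. Python 3.11.15, scipy 1.17.1 and R 4.3.3 were used.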

Additional observations from a re-analysis of the deposited data

How the results depend on the processing

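The unigenes higher on day 6, 111 as reported, were 159 with TMM, 165 with DESeq2's size factors, 83 with clean reads, 70 with mapped reads, 114 by an exact binomial test, 115 with at least 10 reads and 171 at an FDR of 0.05. Those lower, 56 as reported, were 21, 20, 197, 480, 56, 64 and 228 in the same order. With edgeR's exact test and an assumed coefficient of variation (CV) of 0.2 between replicates, none was called in either direction, 571 of 19349 had an unadjusted p under 0.05 (232 higher and 339 lower) and the smallest FDR was 0.00148. The CV was assumed, and 5915 of the 19349 unigenes had under 10 reads, where such a p is hard to reach. The count is thus not compared with chance. Added after seeing the data, an assumed CV of 0.1 gave 69 higher and 7 lower, and a CV of 0.2 at an FDR of 0.05 gave 9 and 2, with or without the limit on the ratio.

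The median log2 ratio of day 6 over day 3, -0.20 as reported, was -0.19 with at least 50 reads, -0.0316 with TMM, -0.0214 with DESeq2's size factors, -0.36 with clean reads and -0.48 with mapped reads. The royal jelly share, 5.85% on day 6 and 2.74% on day 3, was 0.461% and 0.210% without TC24109 and 2.50% and 1.30% of clean reads. Of the 22 called muscle unigenes, 22 were also called with TMM and with DESeq2's size factors, 20 with clean reads, 19 with mapped reads, 17 at a CV of 0.1 and 0 at a CV of 0.2. Of 77 named unigenes with a call, 61 kept it with TMM, with DESeq2's size factors and with mapped reads, 68 with clean reads, 77 by the binomial test, 35 at a CV of 0.1 and 0 at a CV of 0.2, and none reversed. Scaled by clean or mapped reads, TC24109, TC13222, TC22404, TC17720, TC14207, TC14601, TC20289 and TC21638 were no longer called, and scaled by mapped reads alone BP540149, NP9547526, TC14544, TC15513, TC17025 and TC18728. Among the 215 named unigenes, 34 without a call changed sign under a scaling. No paired analysis was possible because each age has 1 library, which also leaves no replicate to take out.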

Other observations

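The lists not described above gave no call. Transcription factors had a median log2 ratio of 0.11 over 79 unigenes with at least 10 reads, cell cycle genes 0.16 over 23, histones and DNA replication 0.06 over 18, and cuticle proteins, which form the outer skeleton, -0.21 over 15, beside 0.08 over all named unigenes. The other lists rested on few unigenes: mitochondrial ribosomal proteins on 6 (0.30), juvenile hormone and ecdysone on 4 (-0.60), apoptosis and autophagy on 4 (0.37), glycolysis on 3 (0.16), heat shock proteins on 3 (-0.42), glutathione and UDP transferases on 2 (0.29) and antimicrobial peptides on 1 (-0.01). None of these values was tested. The medians of the transcription factor and histone lists fell below 0 when the libraries were scaled by clean or mapped reads, and that of the cell cycle list when scaled by mapped reads.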
